A study of Mus musculus with 6 samples.

Results

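Interleukin-2, its receptor chains and the regulators that its signal induces were followed across the 3 T cell populations of one mouse experiment. The 10 genes, given by symbol, were Il2, Il2ra, Il2rb, Il2rg, Cish, Socs1, Socs2, Socs3, Pim1 and Osm, and every probe set annotated to 1 of them alone was taken. That gave 19 of the 45101 probe sets of the array, for 9 of the 10 genes and of the 18194 genes named in the annotation. Il2rg, the common gamma chain, had no probe set under its name in the annotation used here and is not analysed here. Of the 19 probe sets, 18 lay above the median of all values, a log2 value of 5.48, in at least 2 arrays and were tested. The exception was Socs2 probe set 1441476_at, which lay between 3.89 and 4.29 in all 6 arrays.

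Affymetrix Mouse430_2 arrays measured RNA of CD4-stained T cells sorted from BALB/c Rag1-/- mice, which make no T or B cells of their own. All hosts had been given both wild-type natural regulatory T cells (nTreg) and 500000 wild-type regulatory T cells induced in culture (iTreg), and the general protocol of the labels describes such treatment of mice with colitis. Cells were recovered on day 125 and pooled from spleen and mesenteric lymph node of 14 treated mice. Each group had 2 arrays, 1 per pool, and whether pools of 1 group held cells of separate mice is not stated in the labels, so p-values cover the spread between pools alone, and that spread may be technical.

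EGFP reports Foxp3, the lineage-defining transcription factor of regulatory T cells. Thy1.1, a variant of a T cell surface protein, tells cells given as iTreg from the others. The ex-iTreg cells were EGFP- Thy1.1+, that is, cells given as iTreg that lacked the reporter when sorted. The iTreg cells were EGFP+ Thy1.1+, and the nTreg cells were EGFP+ Thy1.1-. No group came from untreated hosts, so each population is set against the others in the same hosts.

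Array medians lay between 5.47 and 5.49, and arrays of 1 group correlated at 0.997 to 0.998 across probe sets, against 0.983 to 0.991 for arrays of different groups. Markers of T cells averaged between 11.41 and 11.69 in the 6 arrays (6 genes). By limma, 2 of the 6 were lower in ex-iTreg than in iTreg cells, with differences of -0.49 for Cd3e and -0.47 for Cd2, and 4 were lower and 1 higher than in nTreg cells, and their part in the results was not tested. Of all tested genes 36.6% and 37.4% were called in these comparisons. Foxp3 itself had 1 probe set, between 3.99 and 4.29 in all arrays, so the sort cannot be checked on its RNA. The 24 probe sets for the poly-A RNAs, controls added to a sample before labelling, averaged 9.49 and 9.62 in ex-iTreg pools, 12.36 and 12.33 in iTreg pools, and 10.86 and 10.96 in nTreg pools. These are log2 values in the order that Socs2 and Osm also had, and the part of this difference in the results on the members was not tested.

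IL-2 is a growth factor made mainly by activated conventional T cells. It binds a receptor of an alpha chain (Il2ra, CD25), which raises affinity, and the beta chain (Il2rb) and common gamma chain (Il2rg), which carry the signal through the kinases JAK1 and JAK3 to the transcription factor STAT5. STAT5 turns on genes such as Cish and Socs2, whose protein products damp cytokine signalling, as well as Pim1 and Osm, and it raises Il2ra in turn. Regulatory T cells bear much CD25, make little IL-2 of their own and depend on IL-2 from other cells, while Foxp3 holds Il2 down and Il2ra up.

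Promoter sequence was read for the members from RefSeq (mouse build GRCm38.p6), from 250 bases before to 50 after the annotated start of transcription; 7 of the 10 members matched, with 8 windows. Cish and Socs3 are shown because they were the members whose windows held the palindrome TTCNNNGAA, the shape that STAT factors bind, and because their RNA behaved differently in these arrays. Capitals mark the palindrome, and positions count from 1 at the start. The Cish stretch lies on the plus strand at chr9:107296654-107296683, from position -5 to 25, and holds 2 matches. The Socs3 stretch lies on the minus strand at chr11:117969501-117969530, from position -164 to -135, and holds 1.
Cish: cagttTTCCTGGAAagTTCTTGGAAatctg
Socs3: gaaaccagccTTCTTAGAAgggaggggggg
The palindrome occurred in 2726 of 32851 promoter windows of the same length (8.3%). It is the same on both strands. No match was present in the windows of Il2, Il2ra, Il2rg, Socs1 or Pim1.

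The Il2 promoter is shown because Il2 was the member that was high in ex-iTreg cells. The 250 bases before its start lie on the minus strand at chr3:37125955-37126204, and capitals mark GGAAA or its reverse complement TTTCC, the core to which NFAT factors bind.
Il2: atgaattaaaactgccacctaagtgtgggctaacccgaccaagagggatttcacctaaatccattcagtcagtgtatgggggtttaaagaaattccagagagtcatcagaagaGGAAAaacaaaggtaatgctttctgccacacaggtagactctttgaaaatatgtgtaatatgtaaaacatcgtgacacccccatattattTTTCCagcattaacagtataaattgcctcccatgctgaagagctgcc
This short core was common, with a match on either strand in 61.3% of all windows, and it occurred 1 time in the Il2ra window. It overlaps the palindrome in Cish. The AP-1 motif TGANTCA, which is the same on both strands when reversed, was in 7.81% of all windows and in no window of a member. These matches describe letters only.

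Most of the members were lower in ex-iTreg cells than in either reporter-positive population, with Il2 and Socs3 the exceptions. Of the 18 tested probe sets, 15 were lower and 1 was higher in ex-iTreg than in iTreg cells (limma, Benjamini-Hochberg adjusted p below 0.05), while 37% of all 23484 tested probe sets were called in either direction, 19.3% lower and 17.7% higher. At least 2-fold lower were 8 of the 18, against 1.94% of all tested probe sets; 1 of these 8, Socs2 1438470_at, had its ex-iTreg mean under the filter level. The median difference of the members was -0.91 on the log2 scale, and that of all tested probe sets was 0.0016.

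Against nTreg cells, 14 of the 18 probe sets were lower in ex-iTreg cells and 1 was higher, while 36.4% of all tested probe sets were called in either direction, 18.4% lower and 18.1% higher. Here 9 were at least 2-fold lower, against 3.5% of all, and the medians were -0.95 for the members and 0.03 for all. The comparisons of ex-iTreg cells share the ex-iTreg arrays, so they are not independent of each other.

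Between iTreg and nTreg cells the members were called in both directions. Of the 18 probe sets 6 were higher and 3 lower in iTreg cells, while 29.1% of all tested probe sets were called, 14.6% higher and 14.5% lower. None of the members differed by 2-fold, a size at which 0.852% of all were higher and 1.72% lower. Without iTreg pool 1 or 2, 4 of the 18 were called. The median difference was 0.10 for the members and 0.02 for all.

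By gene, each taken at its probe set with the highest mean, 7 of 9 were lower and 1 higher in both ex-iTreg comparisons, and 2 were higher and 2 lower in iTreg than in nTreg cells. Among all 11019 tested genes the share called was 36.6% for ex-iTreg against iTreg (15.6% higher, 21% lower), 37.4% for ex-iTreg against nTreg (18.4% higher, 19% lower) and 29.1% for iTreg against nTreg (16.4% higher, 12.7% lower). At least 2-fold lower in ex-iTreg cells were 4 of the 9 genes against iTreg cells, beside 240 of the 11019. Against nTreg cells these were 5 of the 9, beside 424. The counts by probe set hold several probe sets of the same gene.

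**Figure D1:**
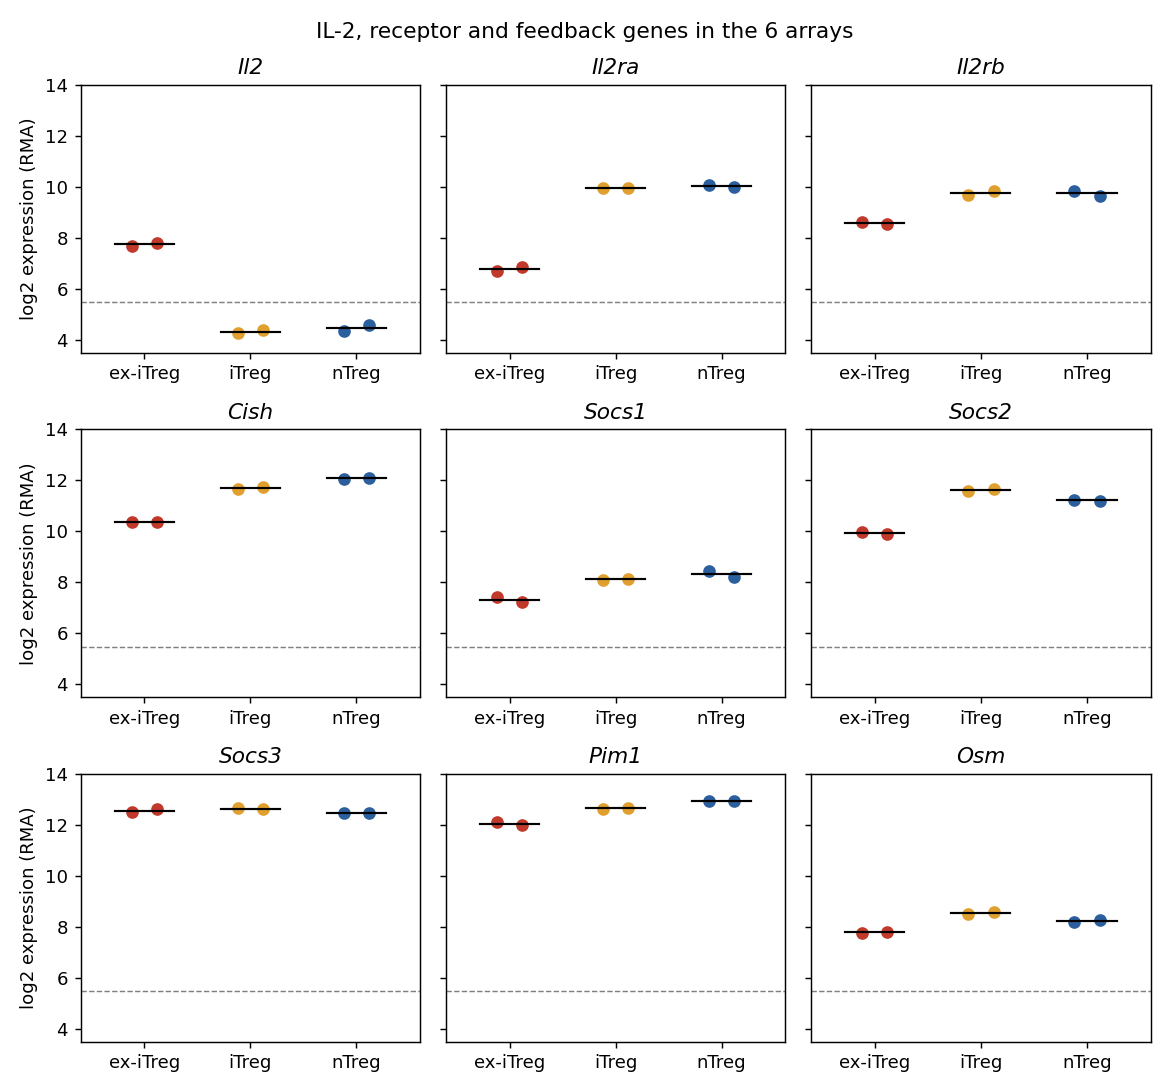
Deposited log2 expression of the 9 member genes at the probe set with the highest mean. Each dot is 1 pool, each bar the mean of 2, groups run ex-iTreg, iTreg, nTreg from left to right, and the dashed line is the filter level of 5.48. Il2 stands above the line in the ex-iTreg pools only (7.69 and 7.81), whereas the ex-iTreg pools are lowest for Il2ra, Il2rb, Cish, Socs1, Socs2, Pim1 and Osm.

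Il2 was found at a measurable level in ex-iTreg cells alone. Its probe set 1449990_at read 7.69 and 7.81 in the ex-iTreg pools, 4.26 and 4.37 in the iTreg pools, and 4.36 and 4.57 in the nTreg pools. The ex-iTreg pools lay far above the rest, and the iTreg and nTreg pools overlapped, all under the filter level. The log2 difference was 3.43 ± 0.10 (SE, n = 2 each) between ex-iTreg and iTreg cells, with an adjusted p of 9.42e-06 by limma. Against nTreg cells it was 3.29 ± 0.10, with an adjusted p of 4.39e-06. No fold is given, because the lower means lie in the range of background. This probe set passed the filter only through the ex-iTreg arrays. Between iTreg and nTreg cells the difference was -0.15, with a 95% interval from -0.38 to 0.09.

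A further probe set, 1447917_x_at, is annotated to both Ntan1 and Il2 and was therefore not counted. It read 9.94 and 9.95 in ex-iTreg pools, 10.31 and 10.28 in iTreg pools, and 10.20 and 10.09 in nTreg pools. It did not follow the Il2 probe set: the ex-iTreg pools were its lowest. Which of the 2 genes it measured cannot be told from these values. In RNA of whole pools, fewer cells that make a transcript and less of it per cell cannot be told apart, and this holds for every member.

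Markers of CD8 T and NK cells moved with Il2 as a list, although the sort was on CD4. Its 7 annotated genes averaged 6.65 and 6.61 in ex-iTreg pools, 5.26 and 5.34 in iTreg pools, and 5.37 and 5.25 in nTreg pools. Of the 6 tested, 5 were higher in ex-iTreg than in iTreg cells, beside 15.6% of all genes. Of the 5, Klrc1 and Klrk1 passed the filter only through the ex-iTreg arrays. The killer cell receptor genes Klrc1, Klrd1 and Klrk1 and the transcription factor gene Eomes were higher in ex-iTreg cells. The genes of the CD8 chains went different ways. Cd8a averaged 6.14 in ex-iTreg, 5.81 in iTreg and 6.14 in nTreg cells, and was called higher in ex-iTreg than in iTreg cells. Cd8b1 averaged 5.27 in ex-iTreg, 6.02 in iTreg and 7.11 in nTreg cells. The part of these transcripts in the Il2 result was not tested.

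The receptor's alpha chain showed the reverse of Il2. Il2ra, at probe set 1420692_at, read 6.69 and 6.84 in ex-iTreg pools, 9.95 and 9.95 in iTreg pools, and 10.06 and 9.98 in nTreg pools. The 4 reporter-positive pools lay close together, and both ex-iTreg pools lay well below them. The level was 9.04-fold lower in ex-iTreg than in iTreg cells (log2 difference -3.18 ± 0.08, limma adjusted p 5.98e-06). It was 9.54-fold lower than in nTreg cells (-3.25 ± 0.08, adjusted p 1.98e-06).

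The other Il2ra probe set, 1420691_at, read 5.59 and 5.53 in ex-iTreg pools, 8.24 and 8.31 in iTreg pools, and 8.48 and 8.25 in nTreg pools. It gave the same order, with ex-iTreg cells 6.55-fold below iTreg and 6.98-fold below nTreg cells. The ex-iTreg pools were just above the filter level there. Between iTreg and nTreg cells neither probe set differed past the threshold. The log2 differences were -0.08, with an interval from -0.26 to 0.11, and -0.09, with an interval from -0.31 to 0.13.

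The beta chain, Il2rb, is shared with the IL-15 receptor, and it too was lower in ex-iTreg cells. Probe set 1448759_at read 8.64 and 8.55 in ex-iTreg pools, 9.68 and 9.82 in iTreg pools, and 9.82 and 9.66 in nTreg pools. The ex-iTreg pools were again the lowest, and the iTreg and nTreg pools overlapped. Ex-iTreg cells were 2.23-fold below iTreg cells (log2 difference -1.16 ± 0.09, limma adjusted p 0.000289) and 2.22-fold below nTreg cells (-1.15 ± 0.09, adjusted p 0.000186). The difference between iTreg and nTreg cells was 0.01, with an interval from -0.20 to 0.22.

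Probe set 1417546_at of Il2rb read 6.93 and 6.90 in ex-iTreg pools, 7.70 and 7.25 in iTreg pools, and 7.58 and 7.67 in nTreg pools. Its iTreg pools lay far apart, and the differences of ex-iTreg cells were smaller, -0.56 ± 0.14 against iTreg cells (limma adjusted p 0.0231) and -0.71 ± 0.14 against nTreg cells (adjusted p 0.00963). The first call was lost when either ex-iTreg pool was left out (highest adjusted p 0.104) and the other when ex-iTreg pool 2 was left out (0.0562).

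**Figure D2:**
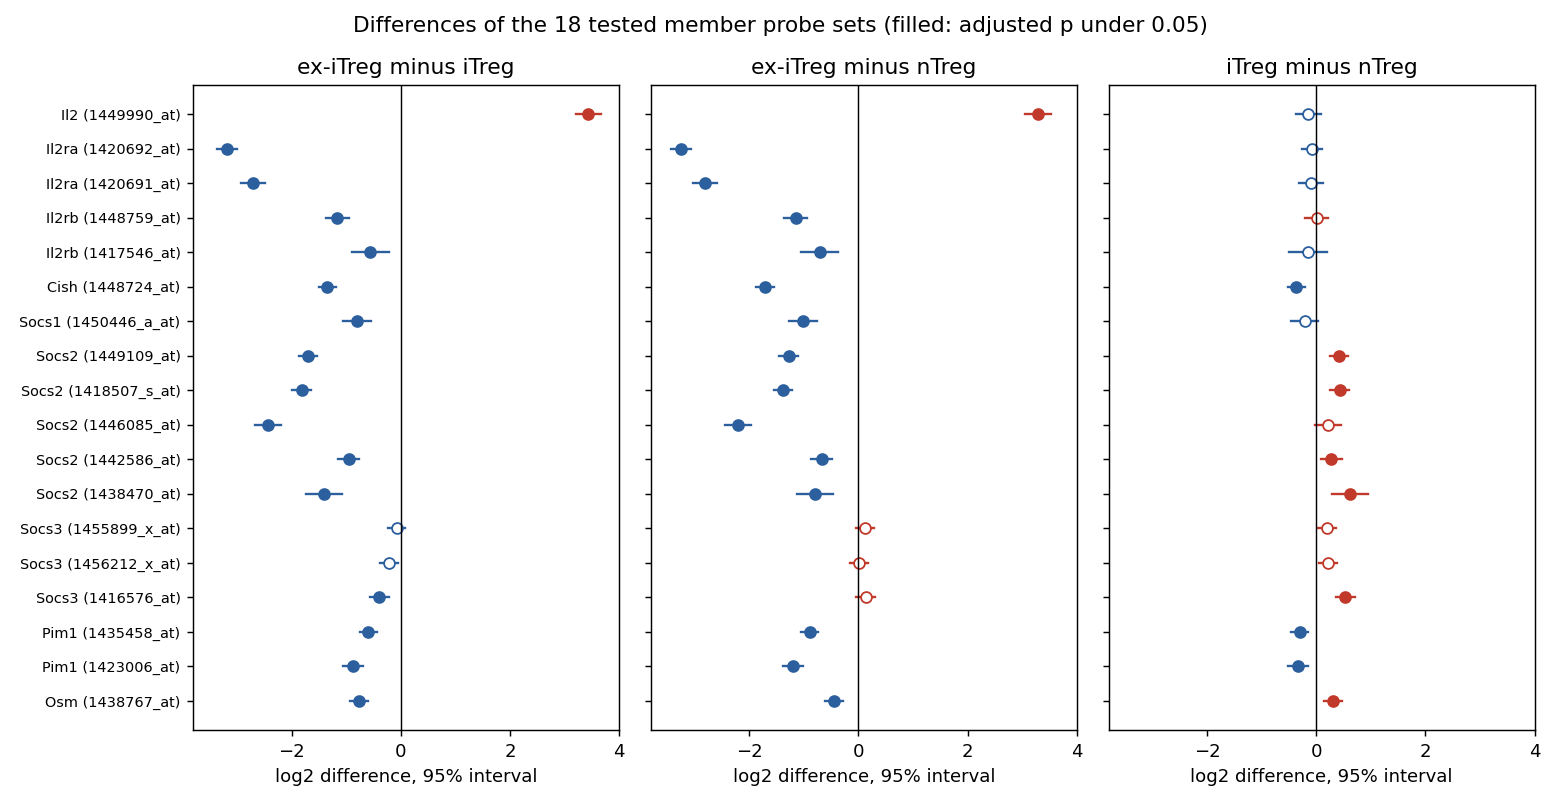
Log2 differences of group means for the 18 tested probe sets in the 3 comparisons, ex-iTreg minus iTreg, ex-iTreg minus nTreg and iTreg minus nTreg, with 95% intervals from limma. Filled points passed an adjusted p of 0.05, red above 0 and blue below. In both ex-iTreg comparisons Il2 stands alone on the high side past 3, and the Il2ra probe sets lie near -3, between -3.25 and -2.71.

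Among the feedback regulators, Cish, which codes for the STAT5-induced inhibitor CIS, fell in ex-iTreg cells. Its single probe set 1448724_at read 10.35 and 10.39 in ex-iTreg pools, 11.68 and 11.76 in iTreg pools, and 12.06 and 12.10 in nTreg pools. The 3 groups were separate, each pair of pools lying closer together than to any pool of another group. Ex-iTreg cells were 2.54-fold below iTreg cells (log2 difference -1.35 ± 0.07, limma adjusted p 5.46e-05) and 3.28-fold below nTreg cells (-1.71 ± 0.07, adjusted p 1.16e-05). In iTreg cells Cish was 1.29-fold below nTreg cells (-0.37 ± 0.07, adjusted p 0.00949), a call that was lost without iTreg pool 1 (adjusted p 0.0538).

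Socs1, whose protein blocks JAK kinases, read 7.41 and 7.24 in ex-iTreg pools, 8.10 and 8.14 in iTreg pools, and 8.46 and 8.21 in nTreg pools. It was 1.74-fold lower in ex-iTreg than in iTreg cells (log2 difference -0.80 ± 0.10, limma adjusted p 0.00216) and 2.02-fold lower than in nTreg cells (-1.01 ± 0.10, adjusted p 0.00066). The order was that of Cish. The step between iTreg and nTreg cells did not pass the threshold here, at -0.21 with an interval from -0.47 to 0.04.

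Socs2, which in mice also limits growth hormone signalling, was lower in ex-iTreg cells at all 5 tested probe sets. Probe set 1449109_at read 9.98 and 9.89 in ex-iTreg pools, 11.60 and 11.67 in iTreg pools, and 11.24 and 11.19 in nTreg pools. The iTreg pools were the highest, unlike for Cish and Socs1, and no groups overlapped. Ex-iTreg cells were 3.25-fold below iTreg cells (log2 difference -1.70 ± 0.07, limma adjusted p 3.16e-05) and 2.43-fold below nTreg cells (-1.28 ± 0.07, adjusted p 4.87e-05). In iTreg cells the level was 1.34-fold above nTreg cells (0.42 ± 0.07, adjusted p 0.00725).

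The other tested Socs2 probe sets kept the ex-iTreg pools lowest. Probe set 1418507_s_at read 9.11 and 9.16 in ex-iTreg pools, 11.02 and 10.89 in iTreg pools, and 10.53 and 10.51 in nTreg pools. Probe set 1446085_at read 6.26 and 6.18 in ex-iTreg pools, 8.61 and 8.68 in iTreg pools, and 8.56 and 8.30 in nTreg pools. At 1446085_at the gap was the widest of the Socs2 probe sets, with ex-iTreg cells 5.37-fold below iTreg cells and 4.62-fold below nTreg cells. Probe sets 1442586_at and 1438470_at lay close to the filter level in ex-iTreg pools (between 4.85 and 5.61), with log2 differences of -0.95 and -1.41 against iTreg cells and -0.67 and -0.79 against nTreg cells.

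Over the 5 tested Socs2 probe sets, 4 were called higher in iTreg than in nTreg cells, and 1446085_at was not (0.22, interval from -0.02 to 0.46). The calls of 1449109_at and 1418507_s_at were kept under all alternatives of processing that were tried. That of 1438470_at (0.62) was lost without either iTreg pool or without nTreg pool 2 (highest adjusted p 0.0965), and that of 1442586_at (0.28, adjusted p 0.0433) was lost under 11 of 13 alternatives.

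**Figure D3:**
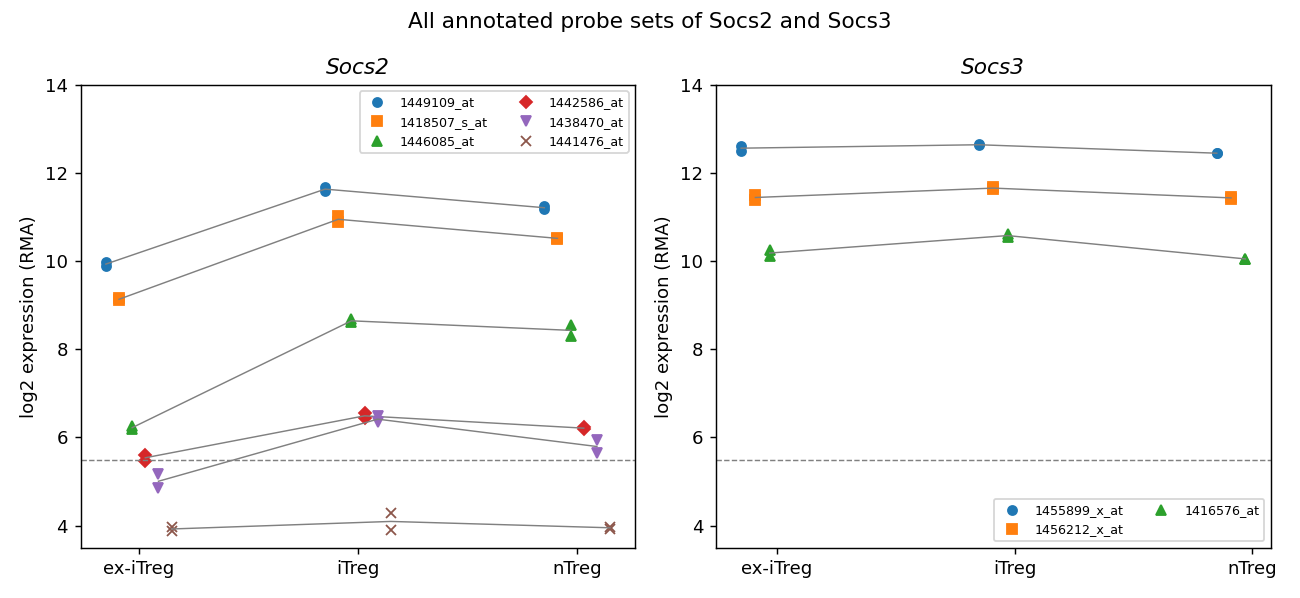
Deposited log2 expression at every Socs2 and Socs3 probe set. Each dot is 1 pool, groups run ex-iTreg, iTreg, nTreg from left to right, and the dashed line is the filter level of 5.48. The ex-iTreg pools are lowest at the 5 tested Socs2 probe sets, whereas at Socs3 probe set 1455899_x_at the 6 pools lie between 12.45 and 12.66.

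Socs3, an inhibitor best known for limiting signals through the IL-6 receptor chain gp130, did not share this pattern. Probe set 1455899_x_at read 12.51 and 12.62 in ex-iTreg pools, 12.66 and 12.63 in iTreg pools, and 12.45 and 12.45 in nTreg pools. Probe set 1456212_x_at read 11.39 and 11.50 in ex-iTreg pools, 11.64 and 11.68 in iTreg pools, and 11.46 and 11.41 in nTreg pools. In these the differences of ex-iTreg cells were small: -0.08 (interval from -0.24 to 0.09) and -0.21 (from -0.38 to -0.05, limma adjusted p 0.0522) against iTreg cells. The second of these was called with the filter at the 60th percentile, after quantile normalization and with the intensity trend, and the mean over the Socs3 probe sets was called too (-0.23, adjusted p 0.0168). Against nTreg cells the differences were 0.11 (from -0.05 to 0.28) and 0.01 (from -0.16 to 0.18).

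Probe set 1416576_at of Socs3 read 10.25 and 10.12 in ex-iTreg pools, 10.56 and 10.61 in iTreg pools, and 10.05 and 10.06 in nTreg pools. The iTreg pools were the highest at this probe set. It was 1.32-fold lower in ex-iTreg than in iTreg cells (log2 difference -0.40 ± 0.07, limma adjusted p 0.00677), 0.13 ± 0.07 from nTreg cells (adjusted p 0.194), and 1.44-fold higher in iTreg than in nTreg cells (0.53 ± 0.07, adjusted p 0.0034). Probe sets with x_at or s_at in their names hold probes that can bind more than 1 transcript.

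Pim1 codes for a serine/threonine kinase induced by STAT factors that aids survival and growth. Probe set 1435458_at read 12.10 and 12.01 in ex-iTreg pools, 12.64 and 12.67 in iTreg pools, and 12.96 and 12.94 in nTreg pools. Probe set 1423006_at read 10.04 and 10.17 in ex-iTreg pools, 11.01 and 10.94 in iTreg pools, and 11.33 and 11.27 in nTreg pools. Both gave the order of Cish with no overlap between groups. Ex-iTreg cells were 1.51-fold and 1.83-fold below iTreg cells (limma adjusted p 0.00109 and 0.000476) and 1.86-fold and 2.29-fold below nTreg cells (0.000154 and 8.51e-05). The smaller differences between iTreg and nTreg cells, -0.30 ± 0.06 and -0.33 ± 0.08, passed the threshold (0.0178 and 0.0214). At 1435458_at this call was lost when any 1 pool of iTreg or nTreg cells was left out, and at 1423006_at when either iTreg pool or nTreg pool 1 was left out.

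Osm codes for oncostatin M, a cytokine of the IL-6 family that STAT5 induces. Its probe set 1438767_at read 7.75 and 7.82 in ex-iTreg pools, 8.53 and 8.58 in iTreg pools, and 8.21 and 8.27 in nTreg pools. The groups did not overlap, and the iTreg pools were highest, as for Socs2. Ex-iTreg cells were 1.70-fold below iTreg cells (log2 difference -0.76 ± 0.07, limma adjusted p 0.000483) and 1.37-fold below nTreg cells (-0.45 ± 0.07, adjusted p 0.00284). In iTreg cells Osm was 1.24-fold above nTreg cells (0.31 ± 0.07, adjusted p 0.0169), a call lost without either iTreg pool or without nTreg pool 1 (highest adjusted p 0.0881).

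Osm is also made by neutrophils and macrophages, and transcripts of such cells varied between the groups. The 8 annotated neutrophil markers averaged 8.04 and 7.99 in ex-iTreg pools, 8.59 and 8.60 in iTreg pools, and 8.17 and 8.21 in nTreg pools, the order of Osm. Of the 6 tested, all were lower in ex-iTreg than in iTreg cells, beside 21% of all genes. In iTreg against nTreg cells 5 of the 6 were higher, beside 16.4%. The 11 macrophage and monocyte markers averaged 7.24 and 7.29 in ex-iTreg pools, 7.90 and 7.89 in iTreg pools, and 6.91 and 6.77 in nTreg pools. Of the 10 tested, 9 were lower in ex-iTreg than in iTreg cells, beside 21% of all genes. In iTreg against nTreg cells 9 of the 10 were higher, beside 16.4%. In ex-iTreg against nTreg cells 7 of the 10 were higher, beside 18.4%, whereas Osm was lower there. Marco, among those higher in both, had its nTreg mean (4.99) under the filter level. From 2 to 3 neutrophil markers and from 1 to 2 macrophage markers lay under the filter level in each array. S100a8, a granule protein gene that marks neutrophils, averaged 10.99 in ex-iTreg, 11.50 in iTreg and 11.25 in nTreg cells. Elane, of immature neutrophils, averaged between 4.83 and 5.06, under the filter level. Mpo, another gene of the neutrophil list, averaged 4.54 in ex-iTreg, 5.71 in iTreg and 4.53 in nTreg cells, and passed the filter only through the iTreg arrays. Their part in the results for Osm, Socs2 and Socs3, which share the high iTreg pools, was not tested.

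The 7 annotated B cell markers averaged 5.68 and 5.76 in ex-iTreg pools, 6.29 and 6.16 in iTreg pools, and 6.50 and 6.68 in nTreg pools. From 3 to 5 of them lay under the filter level in each array. Of the 4 tested, 3 were lower in ex-iTreg than in iTreg cells, beside 21% of all genes, and 1 was not called. Of the 3, Ms4a1 passed the filter only through the nTreg arrays, and its ex-iTreg and iTreg means (4.26 and 4.61) were both under the filter level. Cd79b passed only through the iTreg and nTreg arrays. Ighm averaged 11.09 in ex-iTreg, 12.15 in iTreg and 12.21 in nTreg cells, and Cd79b 4.65, 6.47 and 7.66. The part of these transcripts in the receptor results, and in those of other members with low ex-iTreg pools, was not tested. The lists for dendritic, mast, erythroid and stromal cells averaged between 4.66 and 5.95 in the 6 arrays. The erythroid list was highest in the iTreg pools (5.85 and 5.95). Its 2 tested genes, Alas2 and Klf1, were lower in ex-iTreg than in iTreg cells and higher in iTreg than in nTreg cells. Kit, the 1 tested mast cell gene, was higher by 1.23 in ex-iTreg than in iTreg cells. The part of these transcripts was not tested. Of the 5 tested regulatory T cell markers, Il2ra among them, all were lower in ex-iTreg than in iTreg cells, beside 21% of all genes. In iTreg against nTreg cells 4 of the 5 were lower, beside 12.7%.

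The orders of the member genes can be set side by side. For Cish and Pim1 the order was ex-iTreg, iTreg, nTreg from low to high, with every step past the threshold. For Socs2 and Osm it was ex-iTreg, nTreg, iTreg, again with every step past it. These orders are those of the probe set with the highest mean and all pools. For Cish, Pim1 and Osm the step between iTreg and nTreg cells was lost without certain single pools. With no filter on low values the calls of Pim1 and Osm at this step were lost too. Socs2 1446085_at was not called at this step. For Il2ra, Il2rb and Socs1 the ex-iTreg cells were lowest, and the iTreg and nTreg cells did not differ past the threshold.

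The rest of the pathway was described with lists written from general knowledge, each gene taken at its tested probe set with the highest mean. The transducers of the IL-2 signal were called in both directions. Of 12 genes, 2 were higher, 3 lower and 7 not called in ex-iTreg against iTreg cells. Against nTreg cells 2 were higher, 4 lower and 6 not called, and between iTreg and nTreg cells 3 were higher, 2 lower and 7 not called. The 5, 6 and 5 of 12 called stand beside 36.6%, 37.4% and 29.1% of all genes.

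Stat5b averaged 10.24 in ex-iTreg, 10.57 in iTreg and 10.65 in nTreg cells, and ex-iTreg cells were lower than iTreg cells by a log2 difference of -0.33 ± 0.06 (limma adjusted p 0.00877, and 0.0617 without ex-iTreg pool 2). At its other probe set, 1422102_a_at, the difference was 0.07 (adjusted p 0.614). Stat5a averaged 9.39, 9.37 and 9.66 in ex-iTreg, iTreg and nTreg cells, with differences of 0.02 between ex-iTreg and iTreg cells (adjusted p 0.857) and -0.29 between iTreg and nTreg cells (adjusted p 0.043, lost without any 1 of the 6 pools). Its other probe set, 1450259_a_at, disagreed, with 0.86 between ex-iTreg and iTreg cells (adjusted p 0.00827) and -0.78 between iTreg and nTreg cells (adjusted p 0.016). The receptor-bound kinases showed no call in ex-iTreg cells: Jak1 differed by -0.16 from iTreg cells (adjusted p 0.12) and Jak3 by -0.17 (adjusted p 0.115). At another Jak1 probe set, 1433804_at, ex-iTreg cells were higher by 0.86 (adjusted p 0.000453), so the probe sets of Jak1 disagreed.

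Of the transducers at the probe set with the highest mean, Ptpn11, the phosphatase SHP-2, rose most in ex-iTreg against iTreg cells. The difference was 0.82 ± 0.07 (limma adjusted p 0.000503). The other Ptpn11 probe sets gave 0.05 and 0.32, neither called. Pik3cd was higher by 0.39 (adjusted p 0.0446), and its other tested probe sets gave 0.26 to 1.17, the largest at 1422992_s_at (adjusted p 0.0058). Pik3r1 was lower by 0.38 (adjusted p 0.00444), with -0.09, 0.02 and -0.29 at its other probe sets, none called. Grb2, an adaptor, fell by 0.41 in ex-iTreg against iTreg cells, and Sos1, a Ras activator, was higher by 0.59 in ex-iTreg than in nTreg cells. Between iTreg and nTreg cells all calls in this list were at adjusted p values from 0.0179 to 0.045, and from 0 to 2 of the 5 were left when 1 pool was left out.

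Other cytokines and receptors that use the common gamma chain included a further cytokine that behaved like Il2. Of 10 genes, 5 were tested, and Il4, Il7, Il9, Il15 and Il9r lay under the filter level. Il21, a cytokine of follicular helper cells, averaged 8.86 in ex-iTreg cells, with 4.07 in iTreg and 3.59 in nTreg cells, both under the filter level (log2 difference 4.78 ± 0.10 from iTreg cells, limma adjusted p 5.38e-06). Like Il2, it passed the filter only through the ex-iTreg arrays, and no fold is given. The other Il21 probe set, 1447288_at, averaged 3.82, 3.38 and 3.47 in ex-iTreg, iTreg and nTreg cells. It lay under the filter level in all arrays and was not tested. Il7r, the IL-7 receptor chain that IL-2 lowers, was higher by 0.63 ± 0.07 in ex-iTreg than in iTreg cells (adjusted p 0.00099). Il15ra fell by 0.70 ± 0.12 (adjusted p 0.00623), though its other probe set gave -0.11 (adjusted p 0.334). In all, 3 of the 5 tested, Il21 among them, were higher and 2 lower in ex-iTreg than in iTreg cells, and against nTreg cells 2 were higher and 2 lower. Between iTreg and nTreg cells Il21 was called higher, with both means under the filter level, Il21r was lower (adjusted p 0.0117), and 3 were not called. The counts in the 3 comparisons stand beside 36.6%, 37.4% and 29.1% of all genes called.

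The remaining SOCS, PIM and inhibitor genes, 11 in all, were called in both directions. In ex-iTreg against iTreg cells 3 were higher, 1 lower and 7 not called, beside 36.6% of all genes called. Dusp6, a phosphatase that turns off ERK, averaged 10.12 in ex-iTreg, 8.87 in iTreg and 8.62 in nTreg cells, 1.25 ± 0.10 above iTreg cells (limma adjusted p 0.000368). Ptpn6, the phosphatase SHP-1, was higher by 0.54 ± 0.07 (adjusted p 0.00189), though its probe set 1456694_x_at gave 0.08 (adjusted p 0.402). Pim2 was higher by 0.25 ± 0.06 (adjusted p 0.0269, lost without any 1 ex-iTreg or iTreg pool). Socs5 was lowest in ex-iTreg cells, with 8.79, against 9.07 in iTreg and 9.96 in nTreg cells; its difference from iTreg cells, -0.28 (adjusted p 0.0228), was lost without ex-iTreg pool 2 or either iTreg pool. Against nTreg cells 3 were higher and 3 lower, beside 37.4% of all genes called. Between iTreg and nTreg cells 1 was higher and 3 were lower, beside 29.1%.

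Other genes that IL-2 and STAT5 raise were mostly lower in ex-iTreg cells. Of 15, all tested, 9 were lower, 1 higher and 5 not called against iTreg cells (median log2 difference -0.51, against -0.02 over all genes), and 8 were lower and 2 higher against nTreg cells (median -0.88, against 0.03). Over all genes 21% and 19% were called lower in these comparisons, and 15.6% and 18.4% higher. Il10, an anti-inflammatory cytokine, averaged 7.47 in ex-iTreg, 9.80 in iTreg and 10.73 in nTreg cells (-2.33 ± 0.08 from iTreg cells, limma adjusted p 1.46e-05). Prdm1, the gene of the repressor Blimp-1, averaged 6.66, 8.77 and 9.56 in ex-iTreg, iTreg and nTreg cells (-2.11 ± 0.07, adjusted p 1.52e-05). Gzmb (granzyme B) averaged 9.12, 10.62 and 10.56 in ex-iTreg, iTreg and nTreg cells, and Lta (lymphotoxin alpha) 7.24, 8.74 and 8.71. Tnfrsf18 stands in the list of regulatory T cell markers as well.

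Bcl2, a survival gene that STAT5 raises, was not among those that fell. It averaged 11.04 in ex-iTreg, 10.93 in iTreg and 10.33 in nTreg cells, 0.11 ± 0.07 above iTreg cells (limma adjusted p 0.267) and 0.72 ± 0.07 above nTreg cells (adjusted p 0.000567). Its other tested probe sets disagreed in direction against iTreg cells, with 3 between 0.77 and 1.00 and 1 at -0.27. Of the 15, 3 were higher and 7 lower in iTreg than in nTreg cells, beside 16.4% and 12.7% of all genes. Tnfrsf4 and Nfil3, a costimulatory receptor and a transcription factor, differed by -0.86 and -0.97 between iTreg and nTreg cells. Prf1 went the other way, at 0.82 (limma adjusted p 0.000618).

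Of 5 genes that IL-2 and STAT5 lower, 4 were tested and Tcf7 was not annotated here. Bcl6, the repressor that opposes Blimp-1, averaged 9.28 in ex-iTreg, 7.75 in iTreg and 8.47 in nTreg cells. It was higher by 1.53 ± 0.07 in ex-iTreg than in iTreg cells (limma adjusted p 4.11e-05) and by 0.62 at its other probe set (adjusted p 0.00397). Il6ra was lower in ex-iTreg than in iTreg cells (-0.47 ± 0.10, adjusted p 0.013, lost without ex-iTreg pool 2 or iTreg pool 2) and higher than in nTreg cells (1.00 ± 0.10, adjusted p 0.000585). Against iTreg cells its other probe set, 1422270_a_at, gave 0.22 (adjusted p 0.0803). In ex-iTreg cells 3 of the 4 were higher than in nTreg cells and 2 of the 4 higher than in iTreg cells, where 1 was lower. In iTreg against nTreg cells 2 were higher and 1 lower. Of all genes, 37.4% were called in ex-iTreg against nTreg, 36.6% in ex-iTreg against iTreg and 29.1% in iTreg against nTreg cells.

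**Figure D4:**
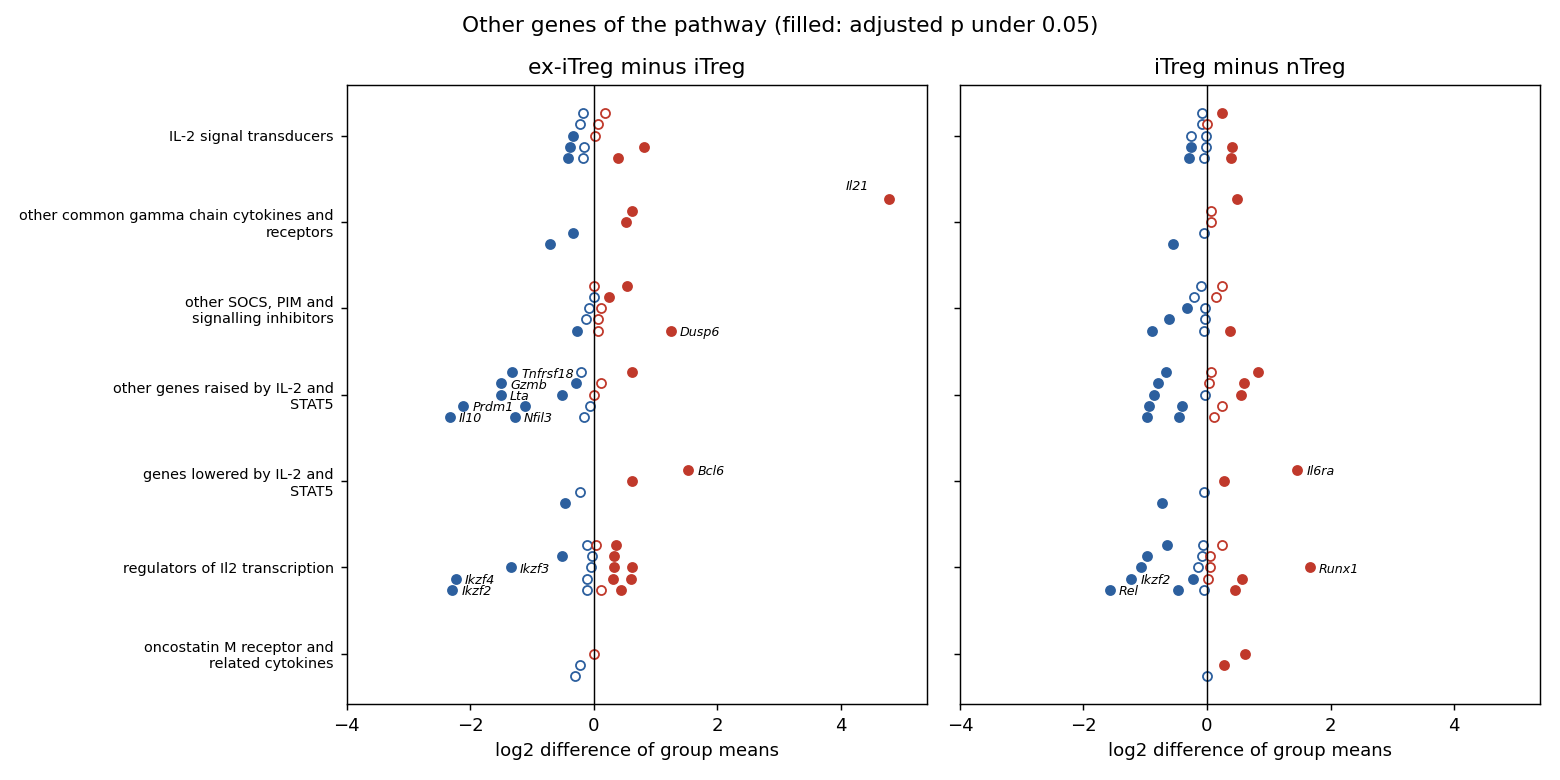
Log2 differences of the tested genes of the 7 pathway lists, ex-iTreg minus iTreg and iTreg minus nTreg, 1 dot per gene at its probe set with the highest mean, with names where a difference passes 1.2. The genes raised by IL-2 and STAT5 lie mostly below 0 in ex-iTreg minus iTreg (median -0.51), and Il21 stands apart at 4.78.

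Regulators of Il2 transcription, 18 of 19 annotated and tested, moved in both directions. In ex-iTreg against iTreg cells 7 were higher, 4 lower and 7 not called, beside 36.6% of all genes called. The Ikaros family genes Ikzf2 (Helios), Ikzf4 (Eos) and Ikzf3 (Aiolos) differed most, by -2.29, -2.23 and -1.34 (limma adjusted p 1.03e-05, 1.2e-05 and 0.0001). Ikzf2 averaged 9.51 in ex-iTreg, 11.79 in iTreg and 13.01 in nTreg cells, and at its probe set 1456956_at the difference was -3.35. Ikzf1 (Ikaros), of the same family, went the other way, higher by 0.37 in ex-iTreg than in iTreg cells (limma adjusted p 0.00573). Crem and Zeb1, also of this list, were higher by 0.61 and 0.32. Eos binds Foxp3 and takes part in the silencing of Il2, and Aiolos has been tied to Il2 silencing in Th17 cells. Fosl2, an AP-1 subunit, was higher by 0.63 ± 0.06 (adjusted p 0.000838), though its probe set 1422931_at gave 0.39 (adjusted p 0.0724).

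Rel, the NF-kappaB subunit c-Rel that drives Il2, averaged 8.57 in ex-iTreg, 8.53 in iTreg and 10.10 in nTreg cells. Runx1 disagreed between its probe sets. The one with the highest mean gave 8.34 in ex-iTreg, 8.86 in iTreg and 7.20 in nTreg cells, while the other 5 differed by -0.31 to 0.17 between ex-iTreg and iTreg cells. Against nTreg cells 5 of the 18 were higher and 7 lower in ex-iTreg cells, and 3 were higher and 7 lower in iTreg cells. These counts stand beside 37.4% and 29.1% of all genes called.

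On the receiving side of oncostatin M, Osmr, Lifr and Il6 lay under the filter level in all arrays (highest value 4.90). Il6st, the shared gp130 chain, averaged 9.47 in ex-iTreg, 9.69 in iTreg and 9.42 in nTreg cells. Of the 3 tested genes of this list, Il6st and Lif were called higher in iTreg than in nTreg cells, by 0.27 and 0.62, the first call being lost without any 1 pool other than nTreg pool 1, and none was called by limma in the ex-iTreg comparisons at its probe set with the highest mean. Of all genes 16.4% were called higher in iTreg than in nTreg cells, and 36.6% and 37.4% were called in the ex-iTreg comparisons with iTreg and nTreg cells. Another Il6st probe set, 1437303_at, was higher by 0.89 in ex-iTreg than in nTreg cells (adjusted p 0.00169) and by 1.05 in iTreg than in nTreg cells (adjusted p 0.00172). At the probe sets with the highest mean, Lif differed by -0.31 from iTreg cells (adjusted p 0.0592) and by 0.32 from nTreg cells (adjusted p 0.0541), and Il6st by -0.22 from iTreg cells (adjusted p 0.0669), with unadjusted p values from 0.0202 to 0.0271 for these 3 differences.

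For Il2, Il2ra and Cish the genes with the most similar pattern were sought over the 6 arrays among 10577 tested genes, by the root mean square of the differences between values centred on each gene's mean. This is a description with 6 points that share 3 groups. Closest to Il2 were Gzmk, coding for granzyme K, at 0.18, and Klrk1 and Slc22a4 at 0.21, followed by Il1rl2 and Ryr1 at 0.36. Gzmk was higher in ex-iTreg than in iTreg cells by a log2 difference of 3.70.

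Closest to Il2ra were Itgae, the CD103 integrin chain, at 0.14, Gpr83 at 0.18, Sdc4 at 0.19, Nxpe4 at 0.26 and Gpr15 at 0.27. Itgae differed by -3.28 between ex-iTreg and iTreg cells and by -0.30 between iTreg and nTreg cells. Closest to Cish were Cd27 at 0.043 and Tnfrsf18, coding for GITR, at 0.060, then Pard6g at 0.074, Sesn1 at 0.078 and Etv5 at 0.082. Cd27 differed by -1.34 between ex-iTreg and iTreg cells and by -0.32 between iTreg and nTreg cells, near the values of Cish.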

How the data were processed

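Biotin-labelled cRNA was hybridised to Mouse430_2 arrays, and the authors deposited 1 log2 value per probe set and array, made with RMA per the submitters' processing notes (program and version: not given in the sources used here). Near the filter level such log2 values can understate differences. The platform annotation named 34945 of 45037 non-control probe sets with 1 gene symbol, 932 with several and 9160 with none. The members and lists were chosen with earlier results of these data known.

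Tested were the 23484 non-control probe sets that exceeded 5.48, the median over the whole table, on 2 or more arrays. Differences came from limma 3.58.1 (lmFit, then eBayes; R 4.3.3), with a mean for each of the 3 groups, 3 residual and 3.37 prior degrees of freedom, and Benjamini-Hochberg adjustment over all tested probe sets at 0.05. Simulated data served to test the model. With 2 arrays a side, the smallest two-sided p of an exact test is 0.333, and the number of arrays limits the precision. Named were all members, per list and comparison up to 4 called genes with the largest difference, genes fixed by name (Stat5a, Stat5b, Jak1, Jak3, Il15ra, Il7r, Bcl6, Bcl2, Prdm1, Ikzf2, Foxp3), and the 5 genes most like Il2, Il2ra and Cish. Markers of T cells and of other cells, and Ikzf1, Crem and Zeb1, were named after their values were seen. Markers fixed for T cells, regulatory T cells, macrophages, neutrophils, dendritic cells, B cells, CD8 T and NK cells, mast cells, erythroid and stromal cells were averaged per array. Alternatives changed the filter, the scaling, the arrays fitted, the variance trend, the replicate block, the arrays left out and the rule for several probe sets. Naive conventional T cells are not analysed here.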

Additional observations from a re-analysis of the deposited data

How the results depend on the processing

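The calls of Il2, Il2ra, Il2rb, Cish, Socs1, Socs2, Pim1 and Osm in both ex-iTreg comparisons, each gene taken at its probe set with the highest mean, kept their direction and side of the threshold under all alternatives run. Leaving out 1 pool gave 15 to 16 called member probe sets in ex-iTreg minus iTreg (16 with all pools), 14 to 15 in ex-iTreg minus nTreg (15) and 4 to 8 in iTreg minus nTreg (9), the lowest without iTreg pool 1 or 2; no filter on low values gave 5. Over all probe sets the same range was 4971 to 9104 in ex-iTreg minus iTreg (8694), 5243 to 7928 in ex-iTreg minus nTreg (8558) and 3420 to 5380 in iTreg minus nTreg (6826).

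Calls among the 12 transducers in iTreg minus nTreg (5) were 0 to 2 without 1 pool, 1 with no filter, 3 with centred arrays, 2 with only the compared groups fitted, 2 with the replicate block and 3 with the mean over a gene's probe sets. In ex-iTreg minus iTreg they were 3 to 5 without 1 pool (5). Calls among other common gamma chain genes without 1 pool were 3 to 5 in ex-iTreg minus iTreg (5), 2 to 4 in ex-iTreg minus nTreg (4) and 1 to 2 in iTreg minus nTreg (2). Calls among other inhibitors in ex-iTreg minus iTreg (4) were 2 to 4 without 1 pool and 2 with no filter, and in iTreg minus nTreg (4) they were 7 with the mean over probe sets. Calls in the oncostatin M list in ex-iTreg minus iTreg (0) were 0 to 1 without 1 pool, 2 with the filter at the 60th percentile, 2 after quantile normalization, and 1 with centred arrays, the compared groups alone, the intensity trend or the mean over probe sets. In ex-iTreg minus nTreg (0) they were 0 to 1 without 1 pool, 1 with the 60th percentile filter, quantile normalization or centred arrays, and 2 with the mean over probe sets. In iTreg minus nTreg (2) they were 1 to 2 without 1 pool and 1 with no filter, the compared groups alone or the replicate block.

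Directions that turned belonged to small differences. Jak1 in ex-iTreg minus iTreg was 0.27 with the mean over its probe sets (limma adjusted p 0.00964), since they disagree. Without 1 pool, Stat5a in ex-iTreg minus iTreg ranged from -0.041 to 0.086, including -0.032 without iTreg pool 1, and Socs3 1456212_x_at in ex-iTreg minus nTreg from -0.043 to 0.062, including -0.016 without nTreg pool 2. In iTreg minus nTreg the ranges without 1 pool were -0.069 to 0.091 for Il2rb (-0.059 without iTreg pool 2), -0.075 to 0.22 for Il15ra (-0.037 without nTreg pool 2), -0.11 to 0.025 for Jak3, -0.21 to 0.023 for Il2ra 1420691_at and -0.38 to 0.073 for Il2rb 1417546_at (-0.38 and called without iTreg pool 1, adjusted p 0.0435); the mean over probe sets gave -0.070 for Il2rb and -0.051 for Il15ra. The causes were not tested.

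Pools with the same number did not deviate together across probe sets (correlations of -0.04, -0.09 and -0.01). Each group gave only the difference between its 2 pools, so this cannot tell whether pools with the same number share mice. With the pool number as a replicate block, 16, 15 and 8 member probe sets were called in ex-iTreg minus iTreg, ex-iTreg minus nTreg and iTreg minus nTreg, and 8011, 7814 and 5853 of all. Levels under the filter level of 5.48 set no order between groups, as for Il2 in iTreg and nTreg cells. With 2 pools a group the calls rest on limma's pooled spread.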
